A study of Homo sapiens with 20 samples.

Results

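The genes examined here encode 8 proteins that bind AU-rich elements of mRNA: ZFP36, ZFP36L1, ZFP36L2, ELAVL1, HNRNPD, KHSRP, TIA1 and TIAL1. They were found by symbol through their Ensembl gene identifiers, and all 8 were present among the 60623 genes of the PP tables and the 60624 genes of the hILO tables. All 8 passed the filter of a mean of at least 1 in each comparison, so none was left out. The cells came from the MEL1 INS GFP/W human embryonic stem cell line, so every group carried a GFP reporter at the insulin gene. They were either wild type (WT) or with both copies of ALKBH5, which encodes an RNA demethylase, disrupted by CRISPR-Cpf1 indels in exon 1 (A5-KO, a single line). Human islet-like organoids (hILOs) were sequenced untreated, with 2 libraries for each genotype. Pancreatic progenitor cells (PPs) were sequenced after 0, 1, 2 or 3 h of actinomycin D at 1 μg/ml, which blocks transcription, with 2 libraries for each genotype and time.

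AU-rich elements lie in the 3′ untranslated regions (UTRs) of many short-lived mRNAs, among them those of cytokines and growth-response genes. Proteins of the ZFP36 family bind them through CCCH zinc fingers and bring in the deadenylase complex, so that the mRNA is degraded, and KHSRP also promotes decay. ELAVL1 (HuR) usually stabilizes the mRNAs it binds, HNRNPD (AUF1) can do either, and TIA1 and TIAL1 hold back translation.

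The mRNAs of several of these proteins hold AU-rich elements themselves. In the 3′ UTR of the canonical GENCODE transcript (GRCh38), the nonamer TTATTTATT, the preferred site of the ZFP36 family, occurred 1 time each in ZFP36, ZFP36L1, ZFP36L2 and ELAVL1, and was not found in those of HNRNPD, KHSRP, TIA1 and TIAL1. Only the sense strand was searched and overlapping matches were counted, so each nonamer also holds a heptamer TATTTAT and each heptamer a pentamer ATTTA. Of the 3′ UTRs of the 12206 tested genes for which one could be read, 9.7% held the nonamer, 36.7% the heptamer and 73.9% the pentamer. The 4 nonamers are given here with 10 bases on either side, with the nonamer in capitals, because they mark which members' own mRNAs carry the element that the ZFP36 family reads.
ZFP36 nonamer: tatgacgactTTATTTATTctaatatgat
ZFP36L1 nonamer: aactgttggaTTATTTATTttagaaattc
ZFP36L2 nonamer: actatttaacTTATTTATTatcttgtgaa
ELAVL1 nonamer: atttatgtatTTATTTATTgaagtgtgaa
The ZFP36 window is at chr19:39409196-39409224 on the plus strand, and the ZFP36L1 window at chr14:68788077-68788105 on the minus strand. The ZFP36L2 window is at chr2:43223448-43223476 and the ELAVL1 window at chr19:7961828-7961856, both on the minus strand, and each of the 4 lies within a single exon. TIA1 and TIAL1 hold a single heptamer each, shown next with the heptamer in capitals, as the nearest thing to the element in the remaining members.
TIA1 heptamer: agatacaatgTATTTATttaaaagatt
TIAL1 heptamer: aaaatgaaaaTATTTATtttaaaaatt
The TIA1 window is at chr2:70212591-70212617 and the TIAL1 window at chr10:119575556-119575582, both on the minus strand and in the 3′ UTR.

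The genes themselves lie on 5 chromosomes. ZFP36 (ENSG00000128016) is at chr19:39406847-39409412, ELAVL1 (ENSG00000066044) at chr19:7958573-8005659 and KHSRP (ENSG00000088247) at chr19:6413102-6424811. ZFP36L2 (ENSG00000152518) is at chr2:43222402-43226606 and TIA1 (ENSG00000116001) at chr2:70209444-70248660. ZFP36L1 (ENSG00000185650) is at chr14:68787660-68796253, HNRNPD (ENSG00000138668) at chr4:82352498-82374503 and TIAL1 (ENSG00000151923) at chr10:119571802-119597029.

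The members differed in how densely the shortest element was packed. ZFP36 held 5 pentamers in a 3′ UTR of 708 bases, which is 7.06 per kb, and ZFP36L1 8 in 1871 bases, or 4.28 per kb. TIA1 had 13 in 3275 bases, ELAVL1 13 in 4910 bases, ZFP36L2 5 in 1917 bases and TIAL1 5 in 2200 bases. HNRNPD, with 2 in 1687 bases, and KHSRP, with 1 in 1922 bases, had the fewest.

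**Figure D1:**
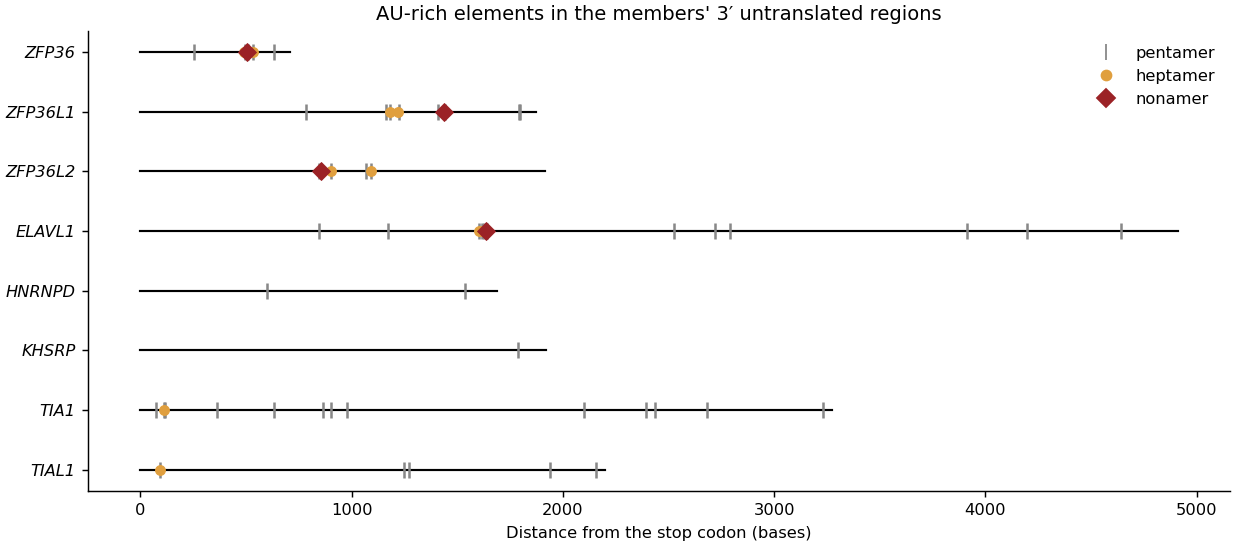
AU-rich elements along the 3′ UTR of each member, with distance from the stop codon in bases on the x axis; grey ticks are pentamers, orange circles heptamers and red diamonds nonamers. The 3 ZFP36 family members and ELAVL1 carry a nonamer, and HNRNPD and KHSRP carry pentamers only.

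Recovered read totals in the 16 PP libraries ranged from 30516384 to 35206514, and the depth of the hILO libraries is unknown because TPM keeps none. ALKBH5 itself stood at 78.8 and 81.9 TPM in WT hILOs against 4.16 and 3.42 in A5-KO, and at 149 and 172 CPM in WT PPs at 0 h against 19.1 and 18.8 in A5-KO. Replicates were least alike in WT PPs at 2 h, where the median absolute difference between the libraries was 0.202 on the log2 scale, against 0.068 to 0.151 in the other PP groups. Summed endocrine markers were 34545 and 36858 TPM in WT hILOs and 27720 and 26508 in A5-KO (7 of 7 detected), although NEUROD1 among them went the other way (208 and 209 against 352 and 349.9). The summed hepatic markers there were 12037 and 12364 TPM in WT against 13545 and 13191 in A5-KO, but they did not move together. ALB (934 and 929 against 1913 and 1846), AFP and SERPINA1 were higher in A5-KO. FGB was lower (1362 and 1394 against 737 and 748), and APOA1 overlapped. The mesenchymal markers in hILOs (5 of 5) summed to 7.7 and 3.9 against 28.4 and 25.5. The pluripotency markers summed to at most 0.1 at both stages. At 0 h, the summed hepatic markers (5 of 5 detected) were 1008 and 1057 CPM in WT PPs and 1737 and 1780 in A5-KO. Most of that gap was AFP (563 and 551 against 1343 and 1294), while SERPINA1 lay lower in A5-KO (311 and 371 against 200.3 and 268). The mesenchymal markers (5 of 5) summed to 42.3 and 44.3 against 131 and 132. The progenitor ones (7 of 7) summed to 1137 and 891 against 904 and 822, which overlapped. Among these, NKX6-1 (367 and 289 against 253 and 241) and ONECUT1 lay lower in A5-KO. PTF1A lay higher (0.057 and 0.093 against 0.464 and 0.264), and the rest overlapped. The part of these marker differences in the results below was not tested. In bulk RNA, fewer cells of a type and less RNA per cell cannot be told apart.

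In untreated hILOs, HNRNPD was the member that differed most between the genotypes. The WT libraries held 158 and 151 TPM against 87.3 and 82.2 for A5-KO, so all A5-KO values lay far below all WT values. The change was -0.86 ± 0.05 (SE) on the log2(TPM + 1) scale, with an adjusted p of 0.00574 by limma over 17300 genes. This was the 1 member of 8 called, which required a change of more than 1.5-fold as well as an adjusted p under 0.05, where 4.09% of all genes tested were called lower. The call was kept in all 8 alternative fits, including each library left out in turn, at adjusted p from 0.00474 to 0.0496.

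The other hILO levels were closer between genotypes. Both A5-KO libraries lay below both WT libraries for 7 of the 8 members, TIA1 being the exception, and the same held for 37.1% of all genes tested. Among the decay-promoting family, ZFP36L1 had 20.2 and 20.1 TPM in WT against 15.6 and 14.3 in A5-KO (log2 change -0.41 ± 0.09, adjusted p 0.0583, limma). ZFP36 had 24.9 and 25.1 TPM in WT against 20.9 and 20.1 in A5-KO (-0.27 ± 0.07, adjusted p 0.0827). ZFP36L2, with WT values of 88.6 and 93.0 TPM against 88.3 and 85.7 in A5-KO, had a change of -0.06 with a 95% interval from -0.20 to 0.07. None of these 3 passed the threshold, although the genotypes did not overlap.

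KHSRP, a KH-domain decay factor, had 64.7 and 59.7 TPM in WT against 50.7 and 52.1 in A5-KO (-0.27 ± 0.06, adjusted p 0.0694, limma). TIAL1 had 60.9 and 57.4 TPM in WT against 48.8 and 50.8 in A5-KO (-0.24 ± 0.06, adjusted p 0.0765). These also missed the threshold. The stabilizing ELAVL1 had 22.8 and 24.5 TPM in WT against 20.9 and 20.6 in A5-KO (-0.18 ± 0.08, adjusted p 0.212). TIA1 values overlapped, with 50.3 and 54.4 TPM in WT against 46.8 and 52.3 in A5-KO (-0.08 ± 0.08). The median change over all genes was -0.06.

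In WT hILOs, TPM, a level per length, was highest for HNRNPD and next for ZFP36L2. KHSRP and TIAL1 followed with overlapping values and then TIA1, while ZFP36, ELAVL1 and ZFP36L1 were lowest, between 20.1 and 25.1 TPM. In WT PPs at 0 h, CPM per kb of exon put KHSRP (74.9 ± 0.15, SD, n = 2) and ZFP36L2 (70.3 ± 10.6) at the top, and these overlapped. HNRNPD followed at 44.3 ± 2.87. ZFP36L1 (21.2 ± 0.90) and TIA1 (20.3 ± 1.21) differed by less than their spread, and ELAVL1 was at 18.7 ± 0.16. TIAL1 (14.3 ± 0.40) and ZFP36 (6.02 ± 1.08) were the lowest. The length used was that of all annotated exons of a gene together. It was 7013 bases for HNRNPD and 6466 for ZFP36L1, against 3068 and 3017 in their canonical transcripts. For ZFP36L2 both lengths were 3693 bases, so this order depends on the length chosen.

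Before actinomycin D, none of the 8 members differed between PP genotypes by the test. By limma 0 of 8 were called, with 0 at an unadjusted p below 0.05 and 0 called by edgeR or DESeq2 on recovered reads, where 2.7% of all genes tested were called in either direction. HNRNPD had 297 and 325 CPM in WT against 336 and 356 in A5-KO, a change of 0.16 with a 95% interval from -0.01 to 0.32. ELAVL1 had 131 and 130 CPM in WT against 141 and 149 in A5-KO, a change of 0.15 (interval -0.02 to 0.32). In these 2 members both A5-KO libraries lay above both WT libraries, as they did for 29.0% of all genes tested. ZFP36L1 was the 1 member with both A5-KO libraries below (141 and 133 CPM against 128 and 113, a change of -0.19, interval -0.38 to 0.01). The share of all genes in that order is not given here, so it is not a result particular to ZFP36L1. The changes of the other 5 members lay between -0.04 and 0.08.

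The members responded unequally to actinomycin D. The 3 ZFP36 family mRNAs were lower within 1 h in both genotypes, while HNRNPD, KHSRP and ELAVL1 kept near their starting level. For ZFP36L2, the WT libraries had 287 and 232 CPM before treatment, 55.8 and 62.9 after 1 h, 42.5 and 103 after 2 h, then 89.2 and 72.5 after 3 h. In A5-KO the level started from 271 and 251 CPM and went to 59.3 and 46.8, then 29.5 and 29.1, then 19.7 and 16.03. The genotypes overlapped at 0 and 1 h. Both A5-KO libraries were below both WT libraries at 2 and 3 h, as in 37.5% and 46.0% of all genes tested. Of its mean CPM at 0 h, 23.0% was left in WT and 20.3% in A5-KO at 1 h, against 31.2% and 6.85% at 3 h.

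ZFP36L1 started from 141 and 133 CPM in WT and reached 64.9 and 66.9 after 1 h, 53.8 and 94.4 after 2 h, then 72.1 and 68.6 after 3 h. In A5-KO it went from 128 and 113 CPM to 63.9 and 52.2, then 38.6 and 40.9, then 41.4 and 31.8. At 2 and 3 h both A5-KO libraries of ZFP36L1 lay below both WT libraries, as in 37.5% and 46.0% of all genes tested. ZFP36, the least abundant, went from 13.4 and 10.4 CPM in WT to 6.63 and 6.54, then 7.06 and 8.38, then 7.85 and 7.43. Its A5-KO values went from 12.2 and 11.6 CPM to 6.56 and 5.52, then 4.55 and 5.05, then 5.20 and 5.79. For all 3 the WT level at 3 h was no lower than at 1 h.

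**Figure D2:**
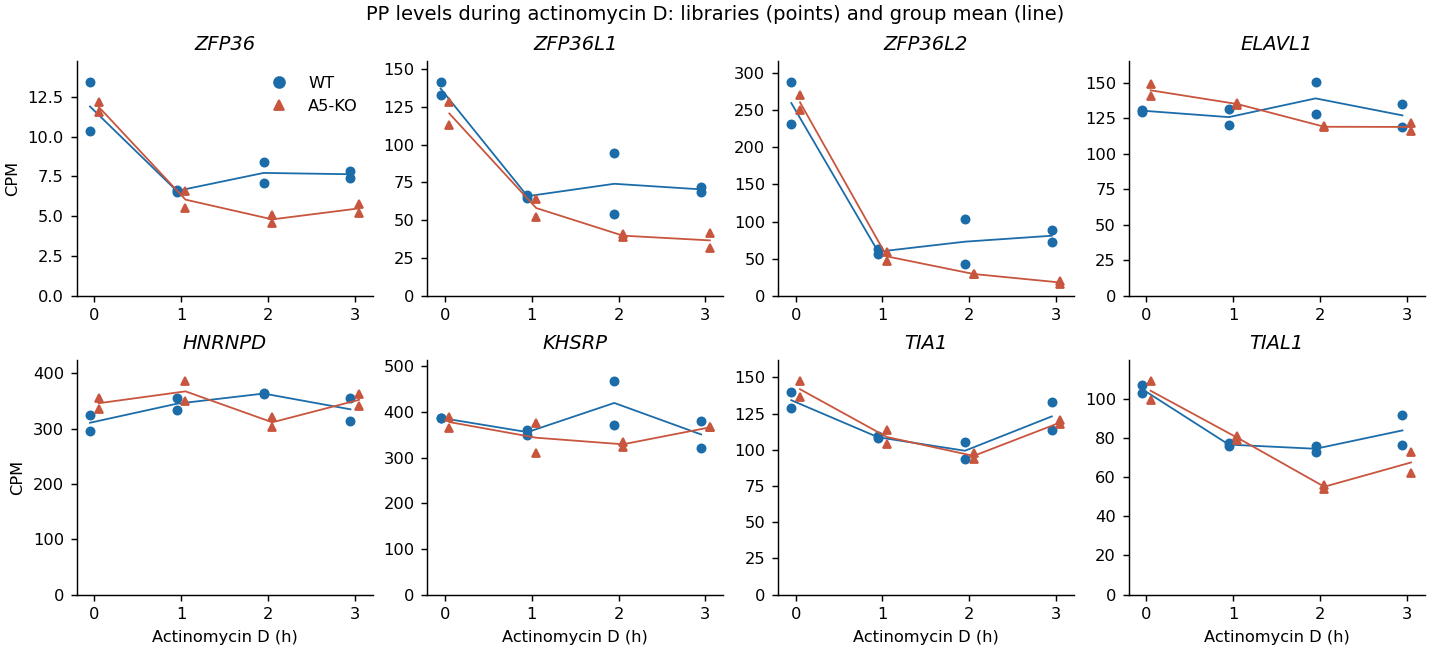
CPM of each member in PPs against hours of actinomycin D, with libraries as points and group means as lines, for WT (blue circles) and A5-KO (red triangles), each panel starting at 0. ZFP36L2, ZFP36L1 and ZFP36 drop within 1 h in both genotypes, and after it the A5-KO line stays below the WT line.

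At 1 h against 0 h, limma over 13620 genes called 3 of 8 members lower in WT, where 15.3% of all genes tested were called lower, and the same 3 in A5-KO, where 16.7% were. ZFP36L2 fell, with changes of -2.11 in WT and -2.28 in A5-KO on the log2(CPM + 1) scale (SE 0.26 for both, adjusted p 4.51e-05 and 2.9e-05). ZFP36L1 changed by -1.04 and -1.05, and ZFP36 by -0.76 and -0.87, and all 4 passed both limits. The ZFP36 call in WT was lost without WT 0 h replicate 1 (log2 change -0.59, adjusted p 0.073). CPM are shares of a library, and the median change of all genes was -0.12 in WT and -0.14 in A5-KO at 1 h, and -0.09 and -0.22 at 3 h. Median-of-ratios scaling moved these medians to between 0.00 and 0.03, and the share of called genes that were lower from 94.1% to 75.9% in A5-KO at 1 h and from 93.5% to 66.4% at 3 h. Relative to the median, ZFP36L2 changed by -1.99 in WT and -2.14 in A5-KO at 1 h.

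At 3 h, 2 of 8 members were called lower in WT, where 10.1% of all genes tested were, and 4 of 8 in A5-KO, where 30.9% were. ZFP36L2 changed by -1.67 in WT (adjusted p 0.0011) and -3.80 in A5-KO (adjusted p 3.33e-08), or -1.58 and -3.58 relative to the median. ZFP36L1 changed by -0.95 and -1.70, and its WT call was lost without WT 0 h replicate 1 (log2 change -0.91, adjusted p 0.0611). ZFP36 fell by 0.99 in A5-KO (adjusted p 8.36e-05). Its WT change of -0.57 (adjusted p 0.0261) was just under 1.5-fold, and passed with a pseudocount of 0.1 (-0.62) and without WT 0 h replicate 2 (-0.74).

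The translational repressors were intermediate. TIAL1 had 107 and 103 CPM in WT before treatment against 76.1 and 91.3 after 3 h. In A5-KO it had 109 and 99.2 CPM before and 72.8 and 62.0 after. Its change at 3 h was -0.33 in WT and -0.62 in A5-KO (adjusted p 0.0342 and 5.96e-05, limma), and only the second passed the fold threshold. That call was lost with median-of-ratios scaling (-0.34), with edgeR (-0.34) and DESeq2 (-0.34), and without A5-KO 0 h replicate 1 (-0.55) or A5-KO 3 h replicate 2 (-0.51). TIA1 started from 140 and 128 CPM in WT, had 105 and 93.4 after 2 h and 113 and 133 after 3 h. In A5-KO it started from 147 and 136 CPM, had 93.8 and 97.8 after 2 h and 120 and 117 after 3 h.

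HNRNPD, ELAVL1 and KHSRP had changes between -0.28 and 0.15 at 1 and 3 h in both genotypes. HNRNPD ranged from 297 to 365 CPM over all WT libraries and from 303 to 386 over all A5-KO libraries. KHSRP ranged from 321 to 466 CPM in WT and from 310 to 389 in A5-KO. ELAVL1, which carries a nonamer like the ZFP36 family, ranged from 119 to 150 CPM in WT and from 116 to 149 in A5-KO, with a change at 3 h of -0.28 in A5-KO and -0.04 in WT. With median-of-ratios scaling the ELAVL1 change at 3 h was 0.004 in A5-KO and 0.06 in WT, so its direction depended on the scaling. The same scaling put the 3 h change in A5-KO at 0.24 for KHSRP (adjusted p 0.0491, under 1.5-fold) and at 0.03 for TIA1, against -0.04 and -0.25.

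The difference in decay between the genotypes was tested as a difference in slope of log2(CPM + 0.1) over 0 to 3 h. By limma 0 of 8 members passed, with 2 at an unadjusted p below 0.05 and 0 by edgeR, where 2.61% of all genes tested had a lower slope in A5-KO. The slopes of each genotype given next come from separate ordinary regression lines, and the differences from limma, so their SEs are not on one footing. ZFP36L2 had a slope of -0.49 ± 0.27 per h in WT and -1.25 ± 0.16 in A5-KO (SE, 8 libraries each). By limma the difference was -0.76 ± 0.26, with an adjusted p of 0.105. For ZFP36L1 the slopes were -0.28 ± 0.13 and -0.57 ± 0.10, a difference of -0.29 (adjusted p 0.228), and for ZFP36 -0.16 ± 0.10 and -0.36 ± 0.11, a difference of -0.20 (adjusted p 0.428). ELAVL1 slopes were near 0 in WT and -0.10 ± 0.02 in A5-KO, a difference of -0.11 (adjusted p 0.175). The differences of the other 4 lay between -0.14 and 0.0025.

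The result turned on which hours and libraries were used. With 0 and 3 h alone, ZFP36L2 (-0.73 per h, adjusted p 0.000186) and ZFP36L1 (-0.26, adjusted p 0.00775) passed, and with 0 and 1 h alone the differences were -0.18 and -0.003. Over 0, 1 and 2 h they were -0.59 and -0.33. ZFP36L2 also passed without WT 0 h replicate 1 (-0.96, adjusted p 0.0296) and without WT 2 h replicate 1 (-0.81, adjusted p 0.0474). At 2 h both A5-KO libraries lay below both WT libraries in 7 of 8 members, as in 37.5% of all genes tested, and at 3 h in 4 of 8, as in 46.0%.

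**Figure D3:**
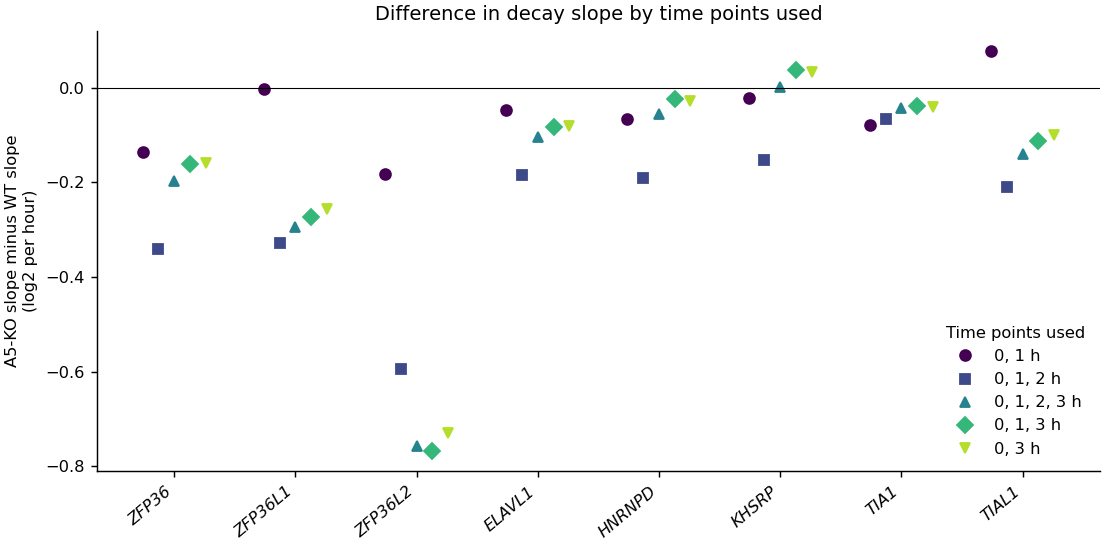
Slope in A5-KO minus slope in WT (log2 per hour, y axis) for each member, with one marker for each set of time points used. The ZFP36L2 difference is -0.18 over 0 and 1 h and -0.76 over all time points, and those of HNRNPD, KHSRP and TIA1 stay between -0.19 and 0.04.

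The genes whose log2(CPM + 1) most resembled each ZFP36 family member over the 16 PP libraries were lower after actinomycin D too. The libraries share the step from 0 h to treatment, so the correlations are a description. For ZFP36L2 they were SOX9, a progenitor transcription factor (Pearson r 0.994), the RNA helicase gene DDX6 (0.994) and USP42 (0.992). SOX9 went from a mean of 279 CPM at 0 h to 65.3 at 1 h and 81.3 at 3 h in WT, and from 259 to 61.4 and 16.4 in A5-KO. For ZFP36L1 they were the ubiquitin ligase gene SMURF1 (0.993), the histone methyltransferase gene SETD2 (0.989) and ZNF516 (0.987). For ZFP36 they were PRDM2 (0.983), RANBP9 (0.973) and CSRNP2 (0.972).

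The gene lists used from here on were chosen with earlier results of these data known, so their counts and medians are a description and not a test. Of the mRNAs known to carry AU-rich elements, 9 of 16 tested were called in hILOs by limma, all lower in A5-KO. Over all genes 4.09% were called lower, and the list median was -0.72 against -0.06 for all genes. The chemokine genes CXCL1 (-2.15 ± 0.16) and CXCL8 (-1.08 ± 0.10), the urokinase receptor gene PLAUR (-1.54 ± 0.28) and the thioredoxin-binding TXNIP (-1.22 ± 0.05) changed most among those whose higher group averaged 10 TPM or more. Of the other proteins that bind such elements, 1 of 14 was called, the neuronal ELAVL2 (-1.11 ± 0.15), a share near that of all genes. Of the deadenylation and decapping factors 2 of 20 were called, the deadenylase subunit genes PAN2 (-0.94 ± 0.17) and PAN3 (-1.63 ± 0.21), of which PAN3, below 10 TPM, was named after its value was seen. In PPs at 0 h, of these lists and the immediate early genes only the nuclear receptor gene NR4A1 was called (-0.75 ± 0.14).

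After actinomycin D, AU-rich mRNAs were called lower in 6 of 14 tested in WT and 7 of 14 in A5-KO at 1 h, and in 7 and 8 of 14 at 3 h. Over all genes the shares called lower were 15.3% in WT and 16.7% in A5-KO at 1 h, and 10.1% and 30.9% at 3 h. The list medians were -0.42 in WT and -0.59 in A5-KO at 1 h, and -0.58 and -1.002 at 3 h. MYC fell most, with changes of -3.27 in WT and -3.16 in A5-KO at 1 h, and of -2.43 and -5.25 at 3 h. Immediate early genes were called lower in 8 of 9 in WT and 7 of 9 in A5-KO at 1 h, and in 8 of 9 at 3 h in both, and FOS and JUN are in this list and the one before. The decay factors themselves, the partners of the ZFP36 family, were called lower in 2 of 20 in WT and 10 of 20 in A5-KO at 3 h, where 10.1% and 30.9% of all genes were, so that the WT count was no higher than over all genes. Their list medians were -0.23 and -0.60 against -0.09 and -0.22 for all genes. CNOT2, a subunit of the deadenylase complex, changed by -0.78 in WT and -2.38 in A5-KO at 3 h. By limma, the slopes of 2 of 20 decay factors were lower in A5-KO, where 2.61% of all genes tested had a lower slope. They were CNOT2 (-0.54 ± 0.13 per h, adjusted p 0.0447) and CNOT6L (-0.50 ± 0.10, adjusted p 0.0367). The slope calls were fragile, since no gene had a lower slope in 10 of 16 fits with a library left out. Other element-binding proteins were called lower in 4 of 14 in WT and 7 of 14 in A5-KO at 1 h, and in 1 and 4 of 14 at 3 h. The 1 h counts were above the 15.3% and 16.7% of all genes, and the 3 h counts below the 10.1% and 30.9%. The ribonuclease gene ZC3H12C changed most, by -2.03 in WT and -2.37 in A5-KO at 1 h and by -1.43 and -2.69 at 3 h. HNRNPDL, a relative of HNRNPD, was called at 1 h in both genotypes (-0.67 and -0.82) and at 3 h in A5-KO (-0.97), but not at 3 h in WT (-0.31).

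Across the 12206 genes whose 3′ UTR could be read, the median change at 1 h was -0.12 in WT and -0.13 in A5-KO for the 11016 without a nonamer, -0.27 and -0.36 for the 912 with 1, and -0.29 and -0.43 for the 278 with more. UTR length moved with these groups, with medians of 1247, 2946 and 4300 bases, and its part was not tested. ZFP36L2, ZFP36L1 and ZFP36 lay below the median of their group in both genotypes, and ELAVL1 above it.

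Of the 8 members, 6 share exonic bases with another gene, so that reads from the shared part cannot be assigned with certainty. TIA1 shares 211 bases with the protein-coding C2orf42 (5.61 to 8.16 CPM in PPs at 0 h), HNRNPD 250 bases with the antisense HNRNPD-DT (0.322 to 0.775 CPM) and ZFP36L2 826 bases with an antisense lncRNA (0 to 0.258 CPM). In hILOs the same partners were at 5.13 to 7.48, 1.46 to 3.90 and 0 to 0.721 TPM. An antisense lncRNA that shares 528 bases with ELAVL1 was listed at 0 at both stages. KHSRP shares 22 bases with MIR3940 on its own strand, which had 14.4 to 21.6 TPM in hILOs and was listed at 0 in PPs at 0 h. ZFP36L1 shares 512 bases with a lncRNA on its own strand, ENSG00000289626, which had no entry at either stage. The part of the shared reads in the members' values was not tested.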

How the data were processed

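Gene tables of 4 hILO and 16 PP RNA-seq libraries were analysed. The authors used fastp for trimming and HISAT2 (2.1.0) for alignment to GRCh38, and deposited TPM from StringTie for hILOs. For PPs the authors deposited CPM after removal of the ERCC spike-ins; the read counter and annotation release are not given in the sources used here. The conversion by spike-ins for half-lives was not repeated, since the tables hold none. CPM were whole multiples of 1 read for at least 99.9951% of values (tolerance 0.01), which gave back the reads. TPM keeps no depth.

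Levels were fitted with limma (3.58.1, R 4.3.3) on log2(value + 1), and slopes on log2(CPM + 0.1), for genes whose mean reached 1, as two-sided tests with Benjamini-Hochberg adjustment over all genes tested. Genes were called at an adjusted p below 0.05 and, except for slopes, a change over 1.5-fold. Changes understate those of low genes. Actinomycin D contrasts came from 1 fit of all 16 PP libraries. edgeR (4.0.16) and DESeq2 (1.42.0) on recovered reads were alternatives, beside the pseudocount, filter, scaling, replicate block, time points and each library left out. The members and lists were chosen with earlier results of these data known. Named genes were all members, the 3 genes most correlated with each ZFP36 family member (mean CPM of at least 10), and up to 4 called genes of each list with the largest change and at least 10 in the group with more. Sites and coordinates came from GENCODE 44 (GRCh38). Labels do not say whether replicates were separate differentiations, so p-values measure the spread between these libraries. The paper calls the decay libraries biological replicates, and states that the wells within a replicate came from a shared batch of cells. Pairing across hours was therefore possible. The main fits ignored it, and whether same-numbered libraries deviate together between hours was not tested. In a test on simulated data, 200 genes were set to change by 2 on the log2 scale for hILOs. All 200 were recovered among 17239 genes, with 5 unchanged genes called. In the other comparisons simulated, 8 to 20 unchanged genes were called, with most for slopes. The hILO reads were simulated at the depth of the PP libraries. The set changes were larger than that of HNRNPD, so recovery of smaller changes was not tested.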

Additional observations from a re-analysis of the deposited data

Results flagged for a closer look

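HNRNPD and ELAVL1 had differences of opposite sign in the 2 stages, with no overlap between the genotypes in either. Both A5-KO libraries lay below both WT libraries in 37.1% of all genes tested in hILOs, and above them in 29.0% in PPs at 0 h. The share of genes with both orders is not given here, so whether these 2 members stand out cannot be told. HNRNPD was lower in A5-KO hILOs (-0.86 on the log2 scale) and higher in A5-KO PPs at 0 h (0.16). ELAVL1 was lower in A5-KO hILOs (-0.18) and higher in A5-KO PPs (0.15). The difference between the stages was not tested, since the tables hold different units and were normalized separately, and of these 4 values only that of HNRNPD in hILOs passed its own test.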

How the results depend on the processing

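The HNRNPD call in hILOs and the ZFP36L2 calls after 1 and 3 h of actinomycin D were kept under every alternative run, and the actinomycin D changes of the 3 ZFP36 family members kept their direction in all of them. Of the 1088 alternative values of single members, 1021 kept direction and side of the threshold, 7 lost a call, 6 gained one and 54 changed sign. Counts of genes were less stable, and the cause was not tested. Genes lower in A5-KO hILOs numbered 187 with no filter and 385 with the replicate block, against 707, and 96 to 203 with any 1 of the 4 libraries left out. In PPs at 0 h, 164 genes were called with no filter and 631 with the replicate block, against 375. At 3 h in WT, 702 genes were lower with no filter and 818 with WT libraries alone, against 1375. With a library left out, 1148 to 2169 genes were lower at 1 h in WT, 1323 to 2471 at 1 h in A5-KO and 208 to 1545 at 3 h in WT, where 1 to 3 members were called. The lowest of these counts came without WT 0 h replicate 1 (1148, and 208 at 3 h), A5-KO 0 h replicate 1 (1323) and, at 3 h in WT, also WT 3 h replicate 1 (606). For slopes, 355 genes were lower, against 165 with a pseudocount of 1, 0 with no filter, 105 with median-of-ratios scaling, 0 with the replicate block, 2739 from 0 and 3 h, 3 from 0 and 1 h, 708 from 0, 1 and 3 h, 0 from 0, 1 and 2 h (chosen after seeing the data), and 0 to 1442 with a library left out, where 0 to 1 member was called. Each of the 16 libraries moved this count by over 1.5 times, upward without WT 0 h replicate 1 (1442) and WT 2 h replicate 1 (1359) and to 0 in 10 cases. From 0 and 3 h, 2 members were called.

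Same-numbered libraries of the genotypes shared little of their deviation from the group means in hILOs (correlation -0.0053). The same held in PPs at 1, 2 and 3 h (-0.0094, -0.059 and -0.017). In PPs at 0 h the deviations correlated at 0.18, so some of the spread was shared there. The replicate block changed no member call. In PPs at 0 h it brought the adjusted p of ZFP36L1 to 0.0292 and of HNRNPD to 0.0291, against 0.283 and 0.293 without it, and both changes stayed under 1.5-fold.

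The values that changed sign were at most 0.2422 in size. With median-of-ratios scaling, edgeR and DESeq2 in turn, PP 0 h changes were -0.032, -0.0373 and -0.0364 for ZFP36 and -0.0298, -0.0288 and -0.028 for ZFP36L2. In the same order, ELAVL1 was 0.0936, 0.0885 and 0.0844 at 1 h in WT, 0.0617, 0.0576 and 0.0494 at 1 h in A5-KO, and 0.0588, 0.0573 and 0.0542 at 3 h in WT. KHSRP was 0.0255, 0.0187 and 0.0148 at 1 h in WT, 0.0183, 0.0181 and 0.0102 at 1 h in A5-KO, and 0.2422, 0.2352 and 0.2367 at 3 h in A5-KO. TIA1 was 0.0337, 0.0274 and 0.0288 at 3 h in A5-KO. With median-of-ratios scaling, ZFP36L2 in hILOs was 0.0027 and ELAVL1 at 3 h in A5-KO 0.004. Slope differences were 0.0139 for HNRNPD and 0.0271 for TIA1 with that scaling, and 0.0124 and 0.0242 with edgeR. From 0 and 1 h, slope differences were -0.0214 for KHSRP and 0.0772 for TIAL1, and from 0, 1 and 2 h -0.1529 for KHSRP. With a library left out, PP 0 h changes ranged from -0.1628 to 0.1774 for ZFP36, -0.1415 to 0.1674 for ZFP36L2, -0.0811 to 0.01 for KHSRP and -0.0792 to 0.0523 for TIAL1. ELAVL1 ranged from -0.1192 to 0.0141 at 1 h and from -0.1306 to 0.0506 at 3 h in WT. At 3 h in A5-KO, HNRNPD ranged from -0.0205 to 0.0713 and KHSRP from -0.0898 to 0.0014. Slope differences ranged from -0.0428 to 0.0288 for KHSRP and -0.09 to 0.0218 for TIA1.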
